A study of Mus musculus with 6 samples.

Results

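The proteasome genes described here were the 50 of 24411 genes in the table whose symbol starts with Psma, Psmb, Psmc, Psmd, Psme, Psmf or Psmg followed by a digit. The rule used names alone and no measured value. By the known role of their products, 14 encode the standard 20S core, 17 the 19S cap, 3 the immunoproteasome subunits, 7 assembly chaperones, and 6 form a group of activators, an inhibitor and Psme2b. Psma8 and Psmb11, known as subunits of testis and thymus, and Psmc3ip, a meiotic recombination factor that shares only the start of the symbol, complete the list. RNA was taken from the soleus (Sol), a slow fiber-rich muscle, of 3 WT and 3 LSD1-mKO C57BL/6 mice after voluntary wheel running (VWR). WT mice carried floxed Lsd1 without Cre. LSD1-mKO mice carried homozygous floxed Lsd1 and ACTA1-CreERT2, a Cre driven by the human skeletal actin promoter and active in muscle fibers after tamoxifen, so that other cells of the muscle keep LSD1. The male mice of both groups were 8 weeks old at the start and lived with a wheel for 38 days. The first 3 days served for familiarization. Tamoxifen (75 mg/kg) was then injected into both groups on each of 5 days, and the distance run was recorded over the last 30 days. Before tissue was taken, mice were kept off the wheel and fasted. There were no sedentary mice in the series, so the comparison is of genotype among trained mice.

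The proteasome degrades proteins, most of them tagged with ubiquitin. In the 20S core, outer rings of alpha subunits gate the chamber and inner rings of beta subunits hold the cutting sites, which belong to Psmb5, Psmb6 and Psmb7. The 19S cap binds, unfolds and feeds in substrates with its ATPase ring. In cells exposed to interferon, and in many leukocytes, Psmb8, Psmb9 and Psmb10 take the place of Psmb5, Psmb6 and Psmb7. PA28, a ring built from the products of Psme1 and Psme2, can sit on the core in place of the cap. In muscle the proteasome is best known for protein breakdown during atrophy.

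Kdm1a, which encodes LSD1, was at 40.5, 38.2 and 33.6 CPM in the WT mice and at 14.6, 16.6 and 16.6 CPM in the LSD1-mKO mice, in order of replicate number. It fell by 1.23 on the log2 scale (SE 0.11, adjusted p = 0.016, edgeR quasi-likelihood test with Benjamini-Hochberg adjustment). The call held with DESeq2 (adjusted p = 7.8e-11), with limma voom (adjusted p = 0.016), with the other scalings and filters, and without WT 1 or WT 3. The call was lost with the replicate number as a block (adjusted p = 0.299) and without WT 2, LSD1-mKO 1, LSD1-mKO 2 or LSD1-mKO 3 (0.111 to 0.209), at log2 fold changes of -1.17 to -1.30 as mice were left out. CPM are the estimated counts of a gene relative to its library's total, after scaling by trimmed mean of M values (TMM). Libraries held 8940206 to 13798059 estimated counts. Myofiber markers were abundant in every mouse, with a sum over 9 genes of 92698 to 121184 CPM. Markers of other cells were unevenly spread. The sum of 15 leukocyte markers was 255, 826 and 674 CPM in WT and 447, 259 and 384 CPM in LSD1-mKO mice, and that of 8 fibroblast markers was 1395, 3693 and 4614 CPM against 3004, 1451 and 1613 CPM. No gene of either list was at 0 in any mouse.

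No proteasome gene passed an adjusted p of 0.05. Of the 50 genes, 48 had enough counts for the test, and 0 were called by edgeR, where 0.0156% of all 12828 genes tested were called, or by DESeq2, where the share was 0.334%. At an unadjusted p under 0.05, edgeR listed 1 gene higher in LSD1-mKO mice, Psme1, beside 3.52% of all genes, and 1 lower, Psme2, beside 2.88%. DESeq2 and limma voom listed these 2 genes as well. Every LSD1-mKO mouse was above every WT mouse for 3 proteasome genes (6.25% of those tested, against 6.62% of all genes) and below for 2 (4.17%, against 6.10%). With library size alone in place of TMM, 0 were above (5.36% of all genes), and Psme2 and Psmd6 were the 2 below (6.45% of all genes). With upper-quartile scaling, Psme1 and Psmg2 were the 2 above (6.74%), and Psme2, Psmf1 and Psmc4 the 3 below (6.28%). The log2 fold change was above 0 for 22 of 48, and for 45.2% of all genes. These shares were close to those of the transcriptome.

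**Figure D1:**
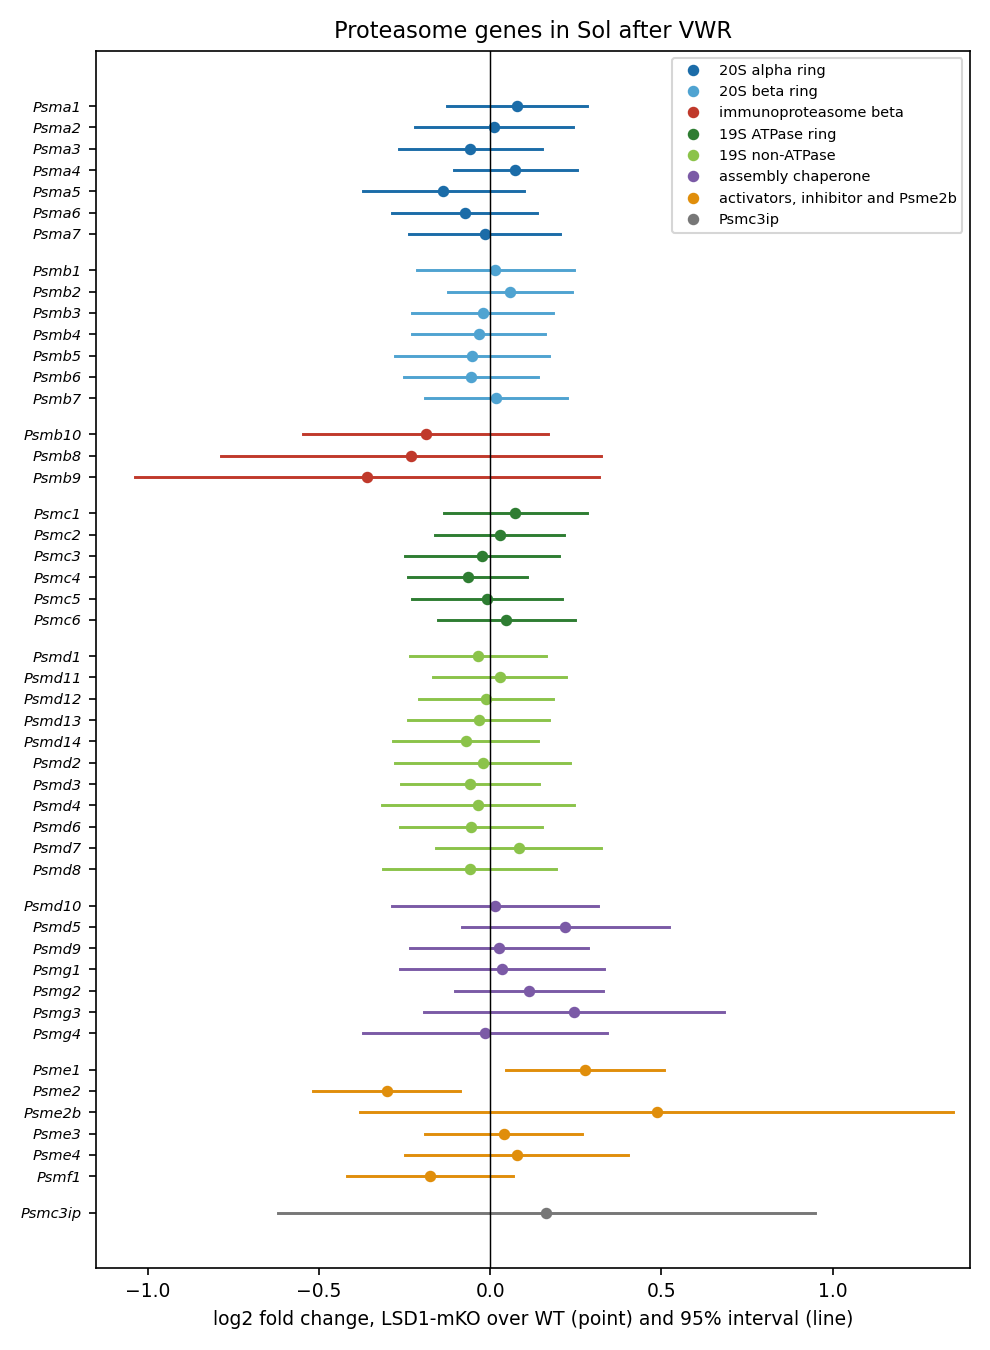
Log2 fold change of each tested proteasome gene, LSD1-mKO over WT, from edgeR (points) with its 95% interval (lines), for 3 mice a group, colored by class. Points of the 20S core and 19S cap lie between -0.14 and 0.08 with intervals that all include 0, and those of Psme1 and Psme2 lie on opposite sides of 0.

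In both rings of the 20S core, differences between the 2 genotypes were small and within the spread of the mice. The median log2 fold change was -0.016 for the 7 alpha subunits and -0.022 for the 7 beta subunits, beside -0.020 for all genes tested. Values ran from -0.14 for Psma5 to 0.08 for Psma1. Psma5 was at 100.4, 82.1 and 93.0 CPM in WT and at 85.7, 88.2 and 76.6 CPM in LSD1-mKO mice (SE 0.10, unadjusted p = 0.217, adjusted p = 0.824). Psma1 was at 119, 103 and 117 CPM in WT and at 122, 123 and 113 CPM in LSD1-mKO mice (SE 0.09, adjusted p = 0.889). The groups overlapped for both genes, as they did for all 14. Across the core, the 95% intervals of the single genes reached from a fold of 0.774 to one of 1.22.

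The 3 beta subunits that cut also differed little. Psmb5, which carries the chymotrypsin-like site, was at 139, 119.6 and 113 CPM in WT and at 117, 125 and 116 CPM in LSD1-mKO mice, a log2 fold change of -0.05 with a 95% interval of -0.28 to 0.17. Psmb6, with the caspase-like site, was at 139, 128 and 129 CPM in WT and 129, 134 and 118 CPM in LSD1-mKO mice, at -0.06 (interval -0.25 to 0.14). Psmb7, with the trypsin-like site, was at 265, 230.5 and 242 CPM against 252, 259 and 234 CPM, at 0.02 (interval -0.19 to 0.22). In all 3 genes WT 1 was the highest mouse and the groups overlapped.

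The 19S cap gave the same picture. The median log2 fold change was 0.009 over the 6 ATPase subunits and -0.036 over the 11 non-ATPase subunits. The lowest value was -0.07 for Psmd14, the deubiquitinase of the lid, which was at 75.3, 66.1 and 78.5 CPM in WT and 68.3, 67.9 and 73.1 CPM in LSD1-mKO mice. The highest was 0.08 for Psmd7, the partner of Psmd14 in the lid, at 191, 161 and 158 CPM against 173, 196 and 171 CPM. The intervals of the single cap genes reached from a fold of 0.803 to one of 1.25, and for all 31 core and cap genes the difference was within 2 SE of 0. Changes smaller than these intervals were not detectable with 3 mice a group.

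Core and cap genes were among the steadier ones. The SD of log2 CPM over the 6 mice had a median of 0.0915 across the 31 genes. It was 0.182 over all genes tested with a count in every mouse and 0.123 over the 2174 genes in the CPM range of the core and cap. The summed CPM of the 31 genes was 4958, 4259 and 4482 in WT and 4492, 4717 and 4368 in LSD1-mKO mice. The highest and the lowest mouse were thus both WT.

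What variation there was ran through core and cap together. WT 1 was the highest mouse for 24 of 31 genes, and for 23.4% of all genes tested. WT 2 was the lowest for 17 of 31. The median deviation from the mean of the 6 mice was 0.11 in both classes in WT 1, and in WT 2 it was -0.10 for the core and -0.09 for the cap. The median Pearson correlation of log2 CPM between pairs of genes was 0.73 in the core, 0.65 in the cap and 0.68 over both, across 6 mice whose libraries and scaling factors all genes share. The position of WT 1 depended on scaling being applied. WT 1 was highest for 24 of 31 genes with the scaling of DESeq2 (median deviation 0.11) and for 20 of 31 with upper-quartile scaling (0.089). With library size alone in place of TMM it was highest for 6 of 31 genes (9.01% of all genes), and its median deviation was -0.001. Without WT 1 the median log2 fold change turned to 0.040 for the core and 0.062 for the cap.

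**Figure D2:**
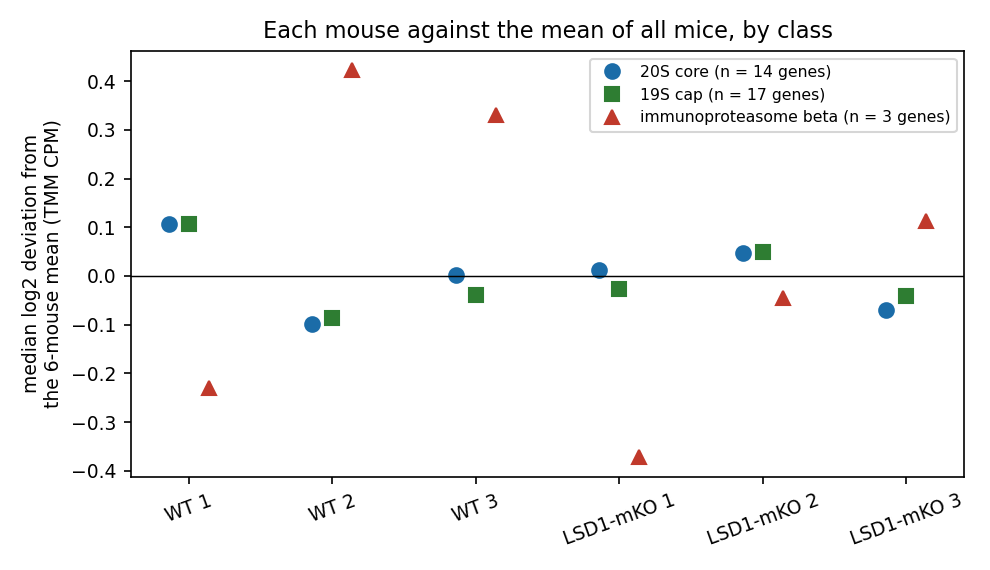
Median log2 deviation of each class from the mean of the 6 mice (vertical axis, TMM CPM) for each mouse (horizontal axis), with 14 core genes, 17 cap genes and 3 immunoproteasome genes. Core and cap points nearly coincide in every mouse within 0.11 of 0, while the immunoproteasome points are lowest in LSD1-mKO 1 and highest in WT 2.

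To set genes side by side, estimated counts were divided by transcript length and scaled to the same total in each mouse (TPM). The median TPM over the 6 mice was 229 for the core and 186 for the cap. Within the alpha ring the level ran from 75.95 TPM for Psma2 to 309 TPM for Psma6, and within the beta ring from 164 TPM for Psmb2 to 471 TPM for Psmb7. The ATPase ring spanned 137 TPM for Psmc6 to 295 TPM for Psmc3, and the non-ATPase subunits 80.9 TPM for Psmd11 to 255 TPM for Psmd2. Subunits that enter the complex in equal number differed several-fold in these RNA levels. The ratio of the core median to the cap median, averaged over mice, was 1.25 ± 0.08 (SD, n = 6). With the merged exons of each gene as its length it was 1.05, and the highest core gene was Psmb5 at 422 TPM with Psmb7 at 225 TPM, so the order of genes within a class depends on the length used.

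Assembly chaperones and immunoproteasome subunits were all expressed below every core and cap gene. The assembly chaperones had a median of 22.4 TPM, from 14.5 TPM for Psmg3 to 35.8 TPM for Psmg2. The immunoproteasome subunits had a median of 13.6 TPM, from 6.04 TPM for Psmb9 to 24.0 TPM for Psmb10. Among activators and inhibitor, Psme1 was highest at 109.9 TPM and Psme2b lowest at 3.46 TPM. With merged exons as length, Psme4 was highest at 92.7 TPM, before Psme3 at 80.3 TPM and Psme1 at 78.0 TPM. Psma8 reached at most 4 counts in a library and 13 in all 6, and Psmb11 gave 1 count in all, so neither was tested. A gene with no count could still be present at up to 3 counts, which is 0.217 to 0.336 CPM across these libraries (counting error only).

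**Figure D3:**
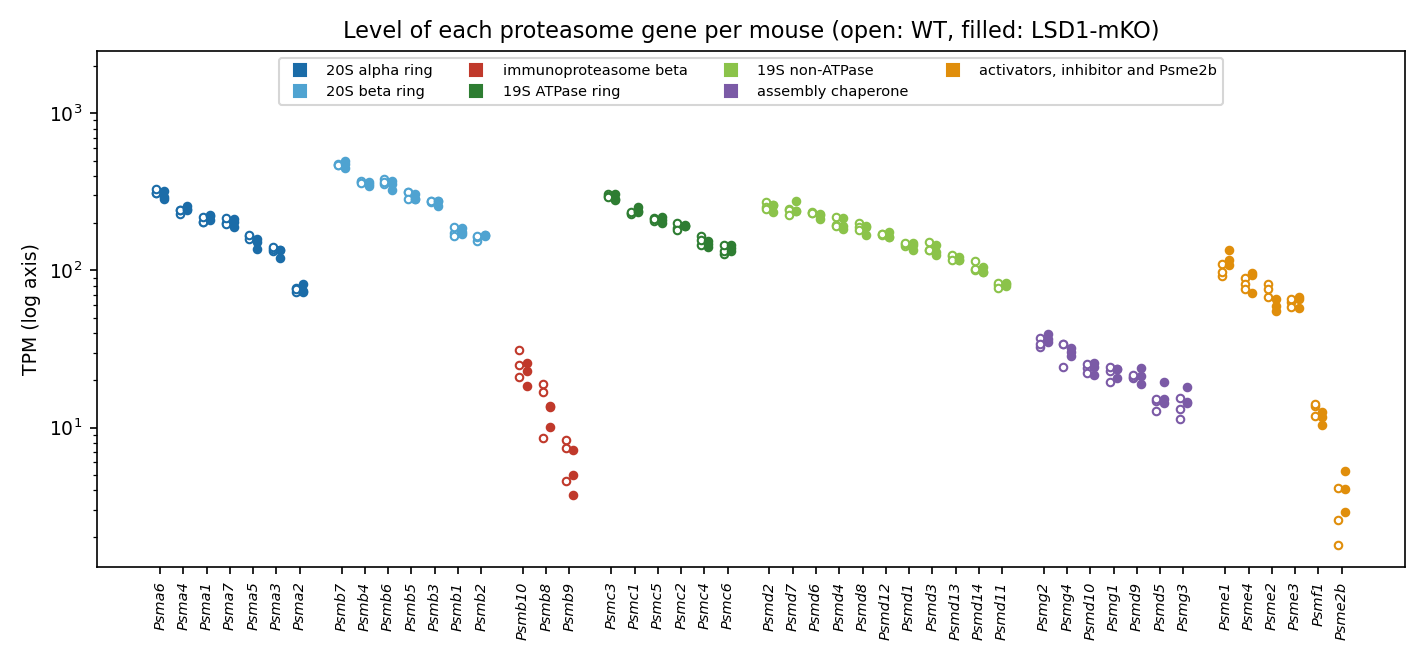
TPM of each proteasome gene in each mouse (log axis; open circles WT, filled circles LSD1-mKO, 3 mice each), ordered by level within its class. Core and cap genes lie between 75.95 and 471 TPM on average, and the 3 immunoproteasome genes between 6.04 and 24.0 TPM.

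Upstream sequence is printed for 5 genes from RefSeq (GRCm38.p6), which gave a promoter window for 42 of the 50. These are the standard subunits Psmb5 and Psmb6, the immunoproteasome subunit Psmb10, and the PA28 partners Psme1 and Psme2, so that sequence upstream of the RefSeq starts of genes with steady and with opposite values can be read beside their levels. Each is the stretch of 100 bases nearest the start site that holds no annotated exon, 5′ to 3′ on the strand of the gene: chr14:54618023-54618122 (minus) for Psmb5, chr11:70525257-70525356 (plus) for Psmb6, chr8:105938445-105938544 (minus) for Psmb10, chr14:55578260-55578359 (plus) for Psme1 and chr14:55591114-55591213 (minus) for Psme2. The Psme1 stretch is upstream of the RefSeq start but inside the gene as annotated by GENCODE, which begins at 55578123. Capitals mark a match to the antioxidant response element TGACNNNGC, the kind of site bound by NRF1 and NRF2.
Psmb5: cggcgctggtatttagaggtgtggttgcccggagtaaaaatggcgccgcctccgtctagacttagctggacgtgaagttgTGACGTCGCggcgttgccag
Psmb6: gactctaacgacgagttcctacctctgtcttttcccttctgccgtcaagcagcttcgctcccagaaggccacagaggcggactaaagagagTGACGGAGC
Psmb10: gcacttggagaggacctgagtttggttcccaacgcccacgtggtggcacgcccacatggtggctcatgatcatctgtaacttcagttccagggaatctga
Psme1: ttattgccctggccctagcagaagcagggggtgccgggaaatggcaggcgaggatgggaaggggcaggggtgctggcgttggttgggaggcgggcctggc
Psme2: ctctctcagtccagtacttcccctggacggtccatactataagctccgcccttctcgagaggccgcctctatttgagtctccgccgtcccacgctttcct

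Counted from the RefSeq start site, the stretches end at position -28 in Psmb5, -1 in Psmb6, -53 in Psmb10, -135 in Psme1 and -13 in Psme2, and the match starts at -47 in Psmb5 and at -9 in Psmb6. In the 250 bases upstream, on both strands, this element was found in 5 of 42 proteasome genes (11.9%), Psmb5, Psmb6, Psmc6, Psmd9 and Psmd12, and in 11.5% of 27025 genes with a window. CCAAT, the box bound by NF-Y, was in 35.7% of the proteasome genes and 37.5% of all. The interferon-stimulated response element was in 3 proteasome genes, Psmb3, Psmd4 and Psmd9 (3.46% of all genes). The STAT site TTCNNNGAA was in Psmb8 and Psmg1 (8.13% of all), and the estrogen-related receptor half-site AAGGTCA in Psma3, Psmb10, Psmc3ip and Psmd2 (4.70% of all). A match is a string of letters and not a measured site, and none of the 5 was found in the windows of Psme1 or Psme2. In the printed stretches no match overlapped another.

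The immunoproteasome subunits had the lowest class median, with no gene past the test. The median log2 fold change was -0.23 over the 3 genes. Psmb8, the counterpart of Psmb5, was at 6.87, 13.0 and 12.2 CPM in WT and at 7.47, 10.1 and 9.96 CPM in LSD1-mKO mice. WT 1, the lowest mouse, set the overlap of the groups. The log2 fold change was -0.23 (SE 0.24, unadjusted p = 0.368, adjusted p = 0.880), with an interval of -0.79 to 0.32. Single mice set its size. It was -0.45 without WT 1, with an unadjusted p under 0.05 and an adjusted p of 0.306, but -0.067 without WT 2, -0.13 without WT 3 and -0.098 without LSD1-mKO 1.

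Psmb9, the counterpart of Psmb6, was at 3.01, 4.77 and 4.44 CPM in WT and at 2.29, 3.04 and 4.38 CPM in LSD1-mKO mice. Its log2 fold change was -0.36 (SE 0.30, adjusted p = 0.849), on 25 to 53 counts a library. Psmb10, the counterpart of Psmb7, was at 13.4, 17.1 and 14.7 CPM against 11.02, 13.6 and 15.2 CPM, at -0.19 (SE 0.16, adjusted p = 0.850). Psmb9 ranged from -0.62 without LSD1-mKO 3 to -0.16 without LSD1-mKO 1, and Psmb10 from -0.29 to -0.068 without the same mice. Without WT 2 the values were -0.23 and -0.083. Across the 3 genes the intervals reached from a fold of 0.488 to one of 1.25. Their SD over the 6 mice had a median of 0.368 on the log2 scale, beside 0.0915 for core and cap, and the counts behind it were far fewer.

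Per length, each immunoproteasome subunit was well below its standard counterpart in every mouse. The TPM of Psmb8 was 2.73%, 5.99% and 5.93% of that of Psmb5 in WT and 3.53%, 4.48% and 4.73% in LSD1-mKO mice. Psmb9 was at 1.28%, 2.20% and 2.03% of Psmb6 in WT, and at 1.05%, 1.34% and 2.19% in LSD1-mKO mice. Psmb10 was at 4.47%, 6.57% and 5.37% of Psmb7 in WT, and at 3.87%, 4.65% and 5.73% in LSD1-mKO mice. The groups overlapped for all 3 ratios. With merged exons as length the mean over the 6 mice was 2.20% in place of 4.56% for Psmb8 over Psmb5, 1.46% in place of 1.68% for Psmb9 over Psmb6, and 11.6% in place of 5.11% for Psmb10 over Psmb7. The log2 ratio differed by -0.12 for the first pair, -0.30 for the second and -0.20 for the last, each less than the SD between mice of a group (0.49, 0.48 and 0.28). For Psmb8 over Psmb5 the sign depended on a single mouse: the difference was 0.067 without WT 2, 0.061 without WT 3 and 0.004 without LSD1-mKO 1.

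Markers of leukocytes, which express immunoproteasome genes, matched these values in some mice and not in others. All 15 had a log2 fold change below 0, with a median of -0.72, and C1qc, a complement gene of macrophages, was the 1 marker at an unadjusted p under 0.05 in edgeR (16.03, 40.4 and 36.2 CPM against 22.3, 12.0 and 19.3 CPM, log2 fold change -0.80, adjusted p = 0.766). DESeq2 also listed C1qa (unadjusted p = 0.0463). WT 2 was highest for each immunoproteasome subunit and had the highest leukocyte sum, 826 CPM. WT 1 had the lowest, 255 CPM, with LSD1-mKO 2 next at 259 CPM. The summed immunoproteasome CPM was 23.3, 34.8 and 31.3 in WT and 20.8, 26.8 and 29.5 in LSD1-mKO mice. Its lowest mouse was LSD1-mKO 1, whose leukocyte sum of 447 CPM lay above those of 3 other mice, and LSD1-mKO 2 was in the middle of its range. All 8 fibroblast markers were below 0 as well, with a median of -0.48. The 12 genes of class I antigen processing had a median of -0.12, with 3 above 0, and the 10 endothelial markers a median of -0.16. The 9 myofiber markers had a median of 0.04. In RNA from whole muscle, fewer cells of a type and less RNA per cell cannot be told apart, and the part of leukocytes in the immunoproteasome values was not tested.

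**Figure D4:**
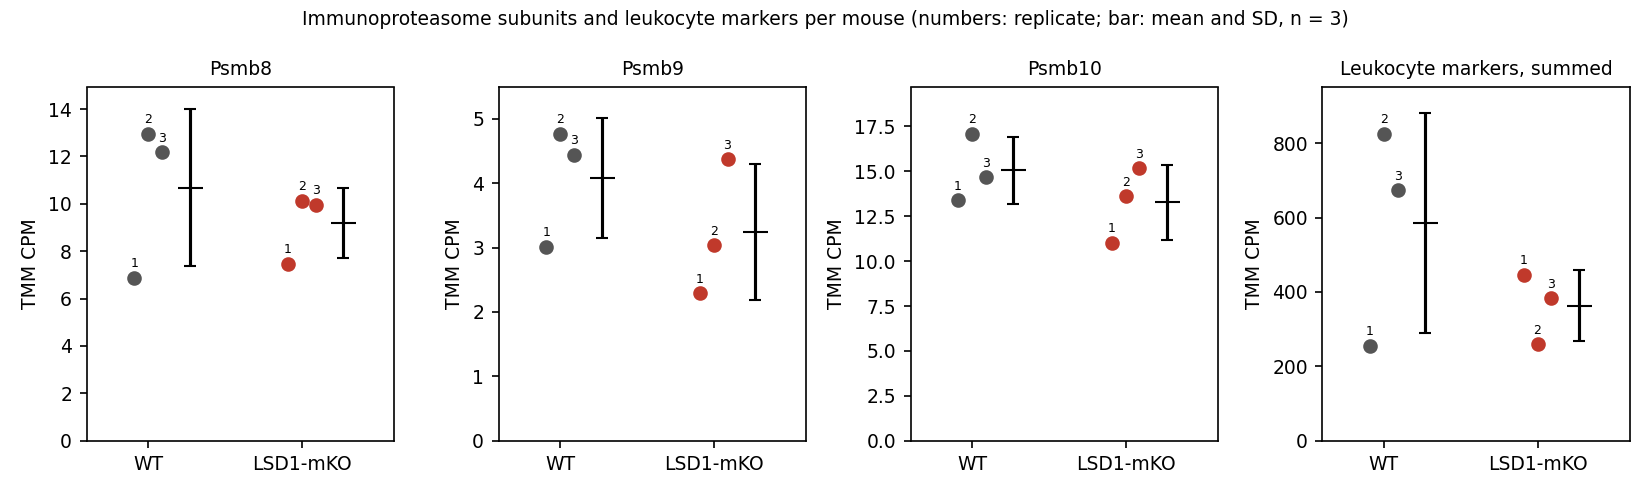
TMM CPM of Psmb8, Psmb9 and Psmb10 and the summed TMM CPM of 15 leukocyte markers in each mouse (points, labeled by replicate number) with mean and SD (bars, n = 3). The groups overlap in each panel, and WT 2 is the highest mouse in all of them.

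The PA28 partners were the only proteasome genes at an unadjusted p under 0.05 in the edgeR fit of all mice, and their differences had opposite signs. Psme1, which encodes the alpha subunit of the PA28 ring, lies at chr14:55578123-55581529 on the plus strand (mm10). It was at 50.2, 51.2 and 48.2 CPM in WT and at 54.6, 58.6 and 68.2 CPM in LSD1-mKO mice, so that each LSD1-mKO mouse was above each WT mouse. The means were 49.9 ± 1.51 and 60.5 ± 6.97 CPM (SD, n = 3), and the log2 fold change was 0.28 (SE 0.10, unadjusted p = 0.0247, adjusted p = 0.717, edgeR).

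Psme2, which encodes the beta subunit, lies close by at chr14:55587441-55591113 on the minus strand. It was at 31.99, 33.0 and 32.4 CPM in WT and at 24.3, 28.6 and 26.0 CPM in LSD1-mKO mice, each LSD1-mKO mouse below each WT mouse. The means were 32.5 ± 0.529 and 26.3 ± 2.17 CPM (SD, n = 3), and the log2 fold change was -0.30 (SE 0.09, unadjusted p = 0.0115, adjusted p = 0.625). Neither gene passes the correction for 12828 genes. Leaving out 1 mouse at a time gave log2 fold changes of 0.18 to 0.35 for Psme1 and of -0.36 to -0.25 for Psme2. Psme1 was no longer at an unadjusted p under 0.05 without WT 3, without LSD1-mKO 3 or with the replicate number as a block, whereas Psme2 was in each of these fits.

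Taking both genes from the same library removes the scaling from the comparison. The ratio of Psme1 to Psme2 estimated counts was 1.57, 1.55 and 1.49 in WT and 2.24, 2.05 and 2.63 in LSD1-mKO mice. The log2 ratio was 0.62 ± 0.04 in WT and 1.20 ± 0.18 in LSD1-mKO mice (SD, n = 3), a difference of 0.58, which ranged from 0.48 to 0.66 as each mouse was left out. This ratio was chosen after the values of both genes were seen and was not tested.

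Counting limits bear on Psme2. Of its 75-base sequences, the length of a read, 51.7% also occur in Psme2b, a near-identical copy on chromosome 11, and its counts were not whole numbers in any of the 6 libraries. Psme2b was at 1.06, 1.45 and 0.669 CPM in WT and 1.11, 1.54 and 1.99 CPM in LSD1-mKO mice, at most 21.4 counts a library (log2 fold change 0.49, SE 0.38, adjusted p = 0.835). With its counts added to Psme2 the log2 fold change was -0.27 (SE 0.09, unadjusted p = 0.0216, adjusted p = 0.701), and the ratios were 1.52, 1.49 and 1.46 in WT and 2.15, 1.94 and 2.44 in LSD1-mKO mice. The share was 3.85% for Psme1, which also has 14 exonic bases in common with Emc9 on the other strand.

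**Figure D5:**
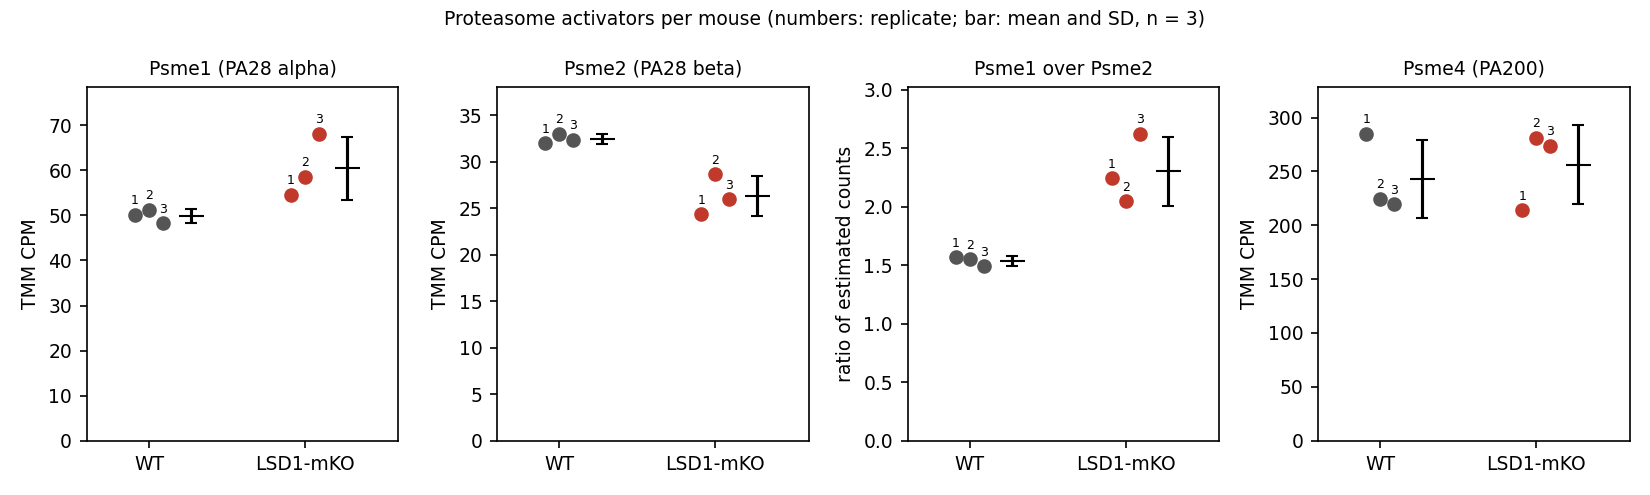
TMM CPM of Psme1, Psme2 and Psme4 and the ratio of Psme1 to Psme2 estimated counts in each mouse (points, labeled by replicate number) with mean and SD (bars, n = 3). The groups are apart for Psme1, Psme2 and their ratio, which is 1.49 to 1.57 in WT and 2.05 to 2.63 in LSD1-mKO mice, and overlap for Psme4.

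The other regulators of the core gave smaller differences. Psme3, the nuclear PA28 gamma, was at 82.3, 73.7 and 68.8 CPM in WT and 70.5, 78.8 and 81.7 CPM in LSD1-mKO mice (log2 fold change 0.04, interval -0.19 to 0.27). Psme4, which encodes the single-chain activator PA200, was at 285, 225 and 219 CPM against 214, 281 and 274 CPM (0.08, interval -0.25 to 0.40). Both overlapped between genotypes. Psmf1, the PI31 protein that inhibits the core in vitro, was at 22.2, 21.9 and 23.8 CPM in WT and at 20.3, 21.7 and 18.0 CPM in LSD1-mKO mice, without overlap (-0.18, SE 0.11, adjusted p = 0.781).

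Of the 7 assembly chaperones, which hold partly built rings and bases together, 6 had a log2 fold change above 0, with a median of 0.034. Psmg3 and Psmg2 did not overlap between groups, 2 of 7 chaperones beside 6.62% of all genes. Psmg3 overlapped with upper-quartile scaling, and both did with library size alone. Psmg3, a chaperone of the alpha ring, was at 5.67, 5.76 and 4.44 CPM in WT and at 5.77, 5.79 and 7.26 CPM in LSD1-mKO mice, with WT 2 and LSD1-mKO 1 nearly equal (0.24, SE 0.19, adjusted p = 0.837). Psmg2, a partner of Psmg1 on the alpha ring, was at 20.7, 20.3 and 19.6 CPM against 20.8, 21.6 and 23.2 CPM, with WT 1 and LSD1-mKO 1 nearly equal (0.11, SE 0.09, adjusted p = 0.850). Psmd5, a chaperone of the ATPase base, had 1 high mouse, with 27.5, 27.1 and 29.5 CPM in WT and 39.2, 30.2 and 28.4 CPM in LSD1-mKO mice (0.22, SE 0.13, adjusted p = 0.781). Psmc3ip was at 1.45, 3.33 and 2.58 CPM against 2.15, 2.68 and 3.63 CPM (0.16, SE 0.34).

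Proteasome genes with other kinds of symbols had log2 fold changes of -0.19 to 0.15. Of 15 such genes, 14 were within 2 SE of 0 and 0 were at an unadjusted p under 0.05. In 1 of them, Shfm1 (6.67%), every LSD1-mKO mouse was below every WT mouse, beside 6.10% of all genes. The median log2 fold change was 0.005. Shfm1, the gene of the small lid subunit SEM1, was at 104, 92.7 and 98.3 CPM in WT and at 88.6, 88.1 and 82.8 CPM in LSD1-mKO mice, each below each WT mouse, with a log2 fold change of -0.19 (SE 0.08, unadjusted p = 0.0527, adjusted p = 0.766). Adrm1, a ubiquitin receptor of the cap, was at 103, 91.2 and 91.4 CPM against 85.9, 93.6 and 80.8 CPM (-0.13, adjusted p = 0.807). Pomp, which matures the beta ring, was at 107, 89.0 and 97.0 CPM against 94.995, 97.1 and 96.5 CPM (-0.02, adjusted p = 0.971).

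Among 10 regulators of proteasome genes, 0 were at an unadjusted p under 0.05 and the median was -0.033. Nfe2l1, which encodes NRF1, the activator of proteasome genes when the proteasome is impaired, was at 1364, 1092 and 1072 CPM in WT and at 1158, 1437 and 1365 CPM in LSD1-mKO mice (0.17, SE 0.14, adjusted p = 0.849). Mafg, a small MAF partner of NRF1 and named after its values were seen, was the single regulator without overlap (10% of them, beside 6.10% of all genes lower). It was at 29.5, 26.6 and 26.6 CPM against 26.2, 24.7 and 22.2 CPM, with WT 3 and LSD1-mKO 1 nearly equal (-0.18, adjusted p = 0.777).

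Reads shared with copies elsewhere in the genome touch other proteasome genes as well. Of the 50 genes, 12 have over 5% of their 75-base sequences in another annotated gene, among them Psmb5 (40.0%), Psma5 (39.8%) and Psmb3 (33.1%). Another limit is that 15 have exonic bases in common with a neighboring gene. They include the immunoproteasome genes Psmb8 (498 bases, with Gm20496) and Psmb9 (212 bases, with Tap1), in both cases on the other strand. How the counting split such reads, and whether it used strand, is not given in the sources used here, so values of these genes are less certain than the others.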

How the data were processed

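Poly(A) RNA of Sol muscle was sequenced with 75-base single-end reads from 1 library per mouse. The authors aligned reads to mm10 with STAR and deposited an estimated count per gene, not normalized. From 8.33% to 9.94% of the values in a library are not whole. The counting tool and annotation are not given in the sources used here. A deposited table of the authors' own DESeq2 comparison was not used. Columns were matched to mice by the number in their headings, which opens each sample title.

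Estimated counts were rounded, filtered with filterByExpr (12828 of 24411 genes kept), scaled by TMM and tested with edgeR 4.0.16 (quasi-likelihood, genotype only, Benjamini-Hochberg adjustment over all genes tested) in R 4.3.3, after the code was tested on simulated data with 200 changed genes. DESeq2 1.42.0 and limma 3.58.1 (voom), other scalings and filters, a replicate block and leaving out each mouse were alternatives. Intervals are 95% intervals of the edgeR fit. TPM used one transcript length per gene from GENCODE vM21, with merged exons as the alternative. Shared sequence was counted over 75-mers of those transcripts.

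The genes and lists were chosen with earlier results of these data known. Genes named in the text were Kdm1a, the catalytic subunits and their immunoproteasome counterparts, activators and inhibitor, genes with an unadjusted p under 0.05 or without overlap of groups, the 5 highest and 5 lowest fold changes, the extremes of level in each class, untested members, and Pomp, Adrm1, Shfm1 and Nfe2l1. The extremes of fold change in core and cap, the sum of Psme2 and Psme2b, and the shares of all genes without overlap under other settings were chosen after seeing the data. The sample titles number the mice within each group and state no pairing. Deviations of same-numbered mice from their group means correlated at -0.352, -0.107 and -0.150 across 12828 genes. With 3 mice a group, these values cannot decide whether mice were paired.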

Additional observations from a re-analysis of the deposited data

How the results depend on the processing

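No proteasome gene was called in any of the 14 other fits. Psme2 had an unadjusted p under 0.05 in each of them. Psme1 lost it with the replicate block, without WT 3 and without LSD1-mKO 3, where the count of genes higher at that p was 0. The count lower was 1 to 2 as mice were left out, and 2 without WT 1, which added Psmb8. The replicate block gave class medians of -0.018 for the core and -0.021 for the cap. As mice were left out, medians ranged from -0.074 to 0.040 for the core, -0.066 to 0.062 for the cap, -0.45 to -0.083 for the immunoproteasome, 0.0094 to 0.094 for the chaperones and -0.005 to 0.16 for activators and inhibitor. With 2 mice left in a group, non-overlap is more common among all genes too. Genes without overlap numbered 3 to 10 higher and 2 to 7 lower: 10 higher (20.8%, beside 15.8% of all genes) and 4 lower (8.33%, beside 17.8%) without WT 1, 7 lower (14.6%, beside 10.8%) without WT 2, 4 lower (8.33%, beside 10.9%) without LSD1-mKO 2 and 6 higher (12.5%, beside 8.91%) without LSD1-mKO 3. They were 0 higher with library size alone. The core to cap ratio was 1.05 with merged exons. Of 378 comparisons of 27 named genes, 364 kept direction and call and 9 changed sign: Psmb5 0.039 and Pomp 0.051 without WT 1, Psmb7 -0.0015 with library size alone, -0.026 without WT 2 and -0.0076 without LSD1-mKO 2, Psme3 -0.019 without WT 3 and -0.0033 without LSD1-mKO 3, and Psmc3ip -0.079 without WT 1 and -0.044 without LSD1-mKO 3. None of these 5 genes was called. Their ranges as mice were left out were -0.12 to 0.039 for Psmb5, -0.026 to 0.075 for Psmb7, -0.019 to 0.11 for Psme3, -0.079 to 0.45 for Psmc3ip and up to 0.051 for Pomp. Kdm1a missed the threshold in the other 5, with the replicate block (adjusted p = 0.299) and without WT 2, LSD1-mKO 1, LSD1-mKO 2 or LSD1-mKO 3 (0.111 to 0.209), at log2 fold changes of -1.17 to -1.30 as mice were left out. The cause of these losses was not tested. Each leave-one-out fit holds fewer mice. The fit with the replicate block holds all of them but estimates more terms. It leaves fewer residual degrees of freedom than the main fit or a leave-one-out fit.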
